A study of Mus musculus with 14 samples.

Results

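Mitochondrial ribosomal proteins are encoded by nuclear genes named Mrpl for the large and Mrps for the small subunit of the ribosome inside mitochondria. Their levels were read in 14 single retinal ganglion cells (RGCs), the output neurons of the retina. Members were all genes whose symbol in the array annotation starts with Mrpl or Mrps followed by a number and that have a probe set naming no other gene. This gave 76 genes of 18193, with 47 in the large and 29 in the small subunit. The cells came from adult mice heterozygous for PV-Cre, in which Cre recombinase is expressed from the parvalbumin gene (Pvalb tm1(cre)Arbr), and for the Ai9 reporter (Gt(ROSA)26Sor tm9(CAG-tdTomato)Hze), which makes the red protein tdTomato once Cre has acted. All 14 cells carried both alleles and received no treatment, so they formed 1 group with no control. The reporter marks any cell that has ever expressed Pvalb, bright cells were easier to pick, and no animal is named for any cell. The background is mixed, since PV-Cre arose on a segregating C57BL/6 and 129P2/OlaHsd background, while Ai9 is congenic on C57BL/6J. Each cell had its own Affymetrix Mouse430_2 array, and the cells are named here cell 1 to cell 14 after their labels.

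The mitochondrial ribosome translates only the few messages of the mitochondrial genome, all of which encode core subunits of the respiratory chain and of ATP synthase. Its RNA comes from mitochondrial DNA, but its proteins are made in the cytosol and imported, so a full particle needs transcripts of many nuclear genes. Some of these proteins descend from those of the bacterial ribosome, and others were added in mitochondria. Neurons with long axons, such as RGCs, depend heavily on the respiratory chain, and mutations of mitochondrial genes cause inherited optic neuropathy.

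Because the members share a function and no location in the genome, the DNA before their start sites was set beside the expression values. RefSeq promoter sequences (assembly GRCm38.p6, 250 bases before to 50 bases after a start site) were found for 67 of the 76 genes. They were searched on both strands for CCGGAAG, the core bound by ETS factors such as GABP, for GCGCATGCG, bound by NRF1, and for AAGATGGCG, bound by YY1. These factors are known regulators of nuclear genes for mitochondrial proteins. The stretches below belong to genes that the results return to, from up to 40 bases before the match to at most 40 after it, and end at or before the start site. They read 5′ to 3′ in the direction of the gene, and capitals mark the match.
Mrpl51: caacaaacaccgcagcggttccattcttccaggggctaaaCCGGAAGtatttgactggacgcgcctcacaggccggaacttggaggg
Mrps27: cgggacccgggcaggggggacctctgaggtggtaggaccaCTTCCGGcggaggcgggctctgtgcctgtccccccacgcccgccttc
Mrps18a: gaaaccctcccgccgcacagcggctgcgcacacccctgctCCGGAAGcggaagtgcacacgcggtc
Mrpl17: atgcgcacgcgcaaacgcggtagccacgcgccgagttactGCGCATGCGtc
Mrpl9: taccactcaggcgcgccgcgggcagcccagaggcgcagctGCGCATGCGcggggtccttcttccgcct

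The Mrpl51 stretch (chr6:125192070-125192156, + strand) holds the ETS core with its first base 90 bases before the start site, and that of Mrps18a (chr17:46110938-46111003, + strand) holds it 26 bases before. In Mrps27 (chr13:99344698-99344784, + strand) the core lies on the opposite strand, 48 bases before the start. The NRF1 letters lie 11 bases before the start of Mrpl17 (chr7:105811088-105811138, - strand) and 28 bases before that of Mrpl9 (chr3:94443268-94443335, + strand). The reverse complement of the NRF1 letters overlaps them by all but 1 base, and in Mrpl9 both strands matched at the same place. Mrpl51, Mrps27, Mrps18a and Mrpl17 were detected in 9, 7, 10 and 13 cells, and Mrpl9 in none, as described further on.

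Of the 67 members with a promoter, 25 (37.3%) held the ETS core, 7 (10.4%) the NRF1 letters and 8 (11.9%) the YY1 letters, and 35 (52.2%) held at least 1 of them. Among all 27025 genes of the promoter table the shares were 9.93%, 1.95%, 1.64% and 12.7%. Among the 3646 array genes that were detected in at least 7 cells and had a promoter they were 22.9%, 5.32%, 4.55% and 29.9%, and among the 49 members of that kind 40.8%, 8.16%, 10.2% and 51.0%. By single promoter, 34.2% of 73 member windows and 8.86% of all 32851 windows held the ETS core. It was found in 34.1% of the large and 42.3% of the small subunit genes, and in 20 of 49 members detected in at least 7 cells (40.8%) against 5 of 18 detected in fewer (27.8%). The other letters ran the other way, with 8.16% against 16.7% for NRF1, 10.2% against 16.7% for YY1 and 51.0% against 55.6% for any of them. A match is a run of letters and not a measured binding site. No match was found in the windows of Mrpl20 and Mrpl41, both detected in 13 cells, which says only that these letters were not in them.

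The values are MAS5 signals on a linear scale. Signals of different probe sets share no common scale, so a gene was compared with itself across cells or counted as detected. Detected means a signal of at least 8 times the median of that array, a threshold that lay between signals of 64.2 and 439.7. Libraries made from 1 cell by oligo-dT priming and 35 PCR cycles can lose a transcript by chance, and a gene without detection may have been expressed. The cells gave 4191 to 11910 detected probe sets, the fewest in cells 5 and 13. Of 12 RGC markers, between 9 and 12 were detected in each cell, and 8 were detected in all 14 cells. Of 13 rod markers, cells 3 and 6 each had 10 and the other cells 1 to 4, with summed rod signals of 156101 in cell 3, 74677 in cell 6 and 355 to 19029 in the rest. Of 10 Müller glia markers each cell had 1 to 5. Clu was detected in 12 cells, Glul, which encodes the glutamine synthetase of the library screen, in 8 and Dkk3 in 7, while Apoe, Aqp4 and Sox9 were detected in none. With 1 group there was no test, and all counts below are descriptions.

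Transcripts of the mitochondrial ribosome were widespread in these neurons. Of the 76 members, 54 (71.1%) were detected in at least 7 cells, where 24.8% of all genes were. None was detected in all 14 cells, which is near the 2.64% of all genes that were. That count changed with the threshold and with single cells left out. Only 1 member was detected in no cell, where 41.8% of all genes were. The median member was found in 8 cells and the median gene in 1. Among the 10588 genes found in at least 1 cell, the median was 5 cells and 42.6% reached 7 cells. Most members occupied the middle of the range, with 18 in 11 to 13 cells, 36 in 7 to 10 and 21 in 1 to 6.

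**Figure D1:**
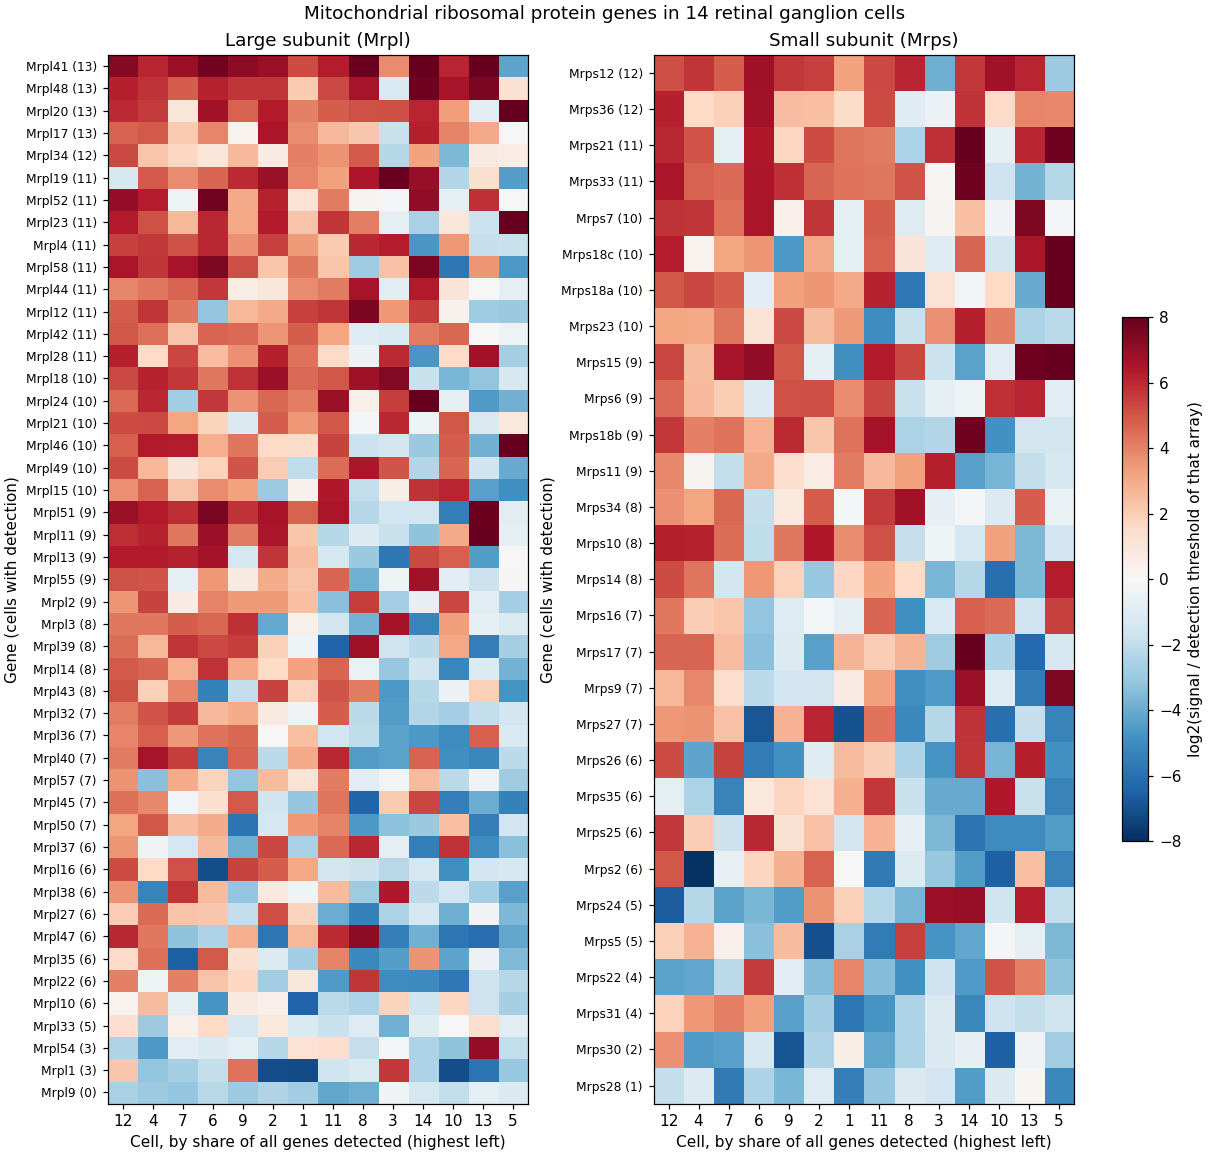
Signals of the 47 large (left) and 29 small (right) subunit genes in 14 cells, as log2 of the signal over the detection threshold of that array, with red above and blue below it. Columns run from the cell with the largest share of all genes detected (cell 12) to the smallest (cell 5), and rows from the gene found in most cells to the gene found in fewest.

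**Figure D2:**
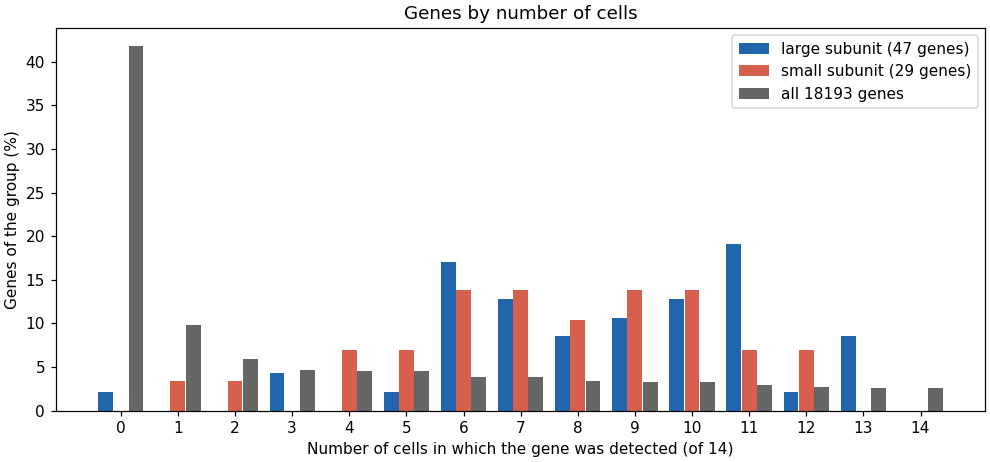
Histogram of genes by the count of cells with a detection (horizontal axis, of 14), as the share of the genes of each group (vertical axis, %), for the large subunit (blue), the small subunit (red) and all 18193 genes (grey). Both subunits peak between 6 and 11 cells, while 41.8% of all genes were in no cell.

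Counts of members per cell left a wide gap. Cell 12 had 69 of 76 members, cell 4 had 61, cells 1, 7, 9 and 11 had 55 each, cell 6 had 54 and cell 2 had 53. The remaining cells had 33 (cell 14), 31 (cell 10), 29 (cell 8), 28 (cell 13), 24 (cell 3) and 18 (cell 5). The 14 cells averaged 58.3% ± 21.4 of the members (SD, n = 14), against 25.2% ± 7.21 of all genes. No cell fell between 33 and 53 members, and the next widest step was 8. All genes had shares of 14.0% to 22.4% in the 6 cells with fewer members and 23.9% to 37.6% in the other 8. This split was drawn from the member counts, so the size of the step cannot be compared with that of the members.

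In every cell the share of members was above that of all genes, by a factor of 1.58 in cell 3 to 3.03 in cell 11. Since members and all genes of a cell come from 1 library, both move with what that library captured. Over all 14 cells Pearson's r between the 2 shares was 0.922 and Spearman's rho 0.876, and r was 0.874 without cells 5 and 12, the farthest from the median. Within the 8 cells with more members, r was 0.787 and rho 0.571. Within the other 6, r was 0.601 and rho 0.371. The 2 cells with 10 rod markers had 24 (cell 3) and 54 (cell 6) members, so they lay on opposite sides of the gap. The ratio of the 3′ to the 5′ Gapdh control is a measure of how short the cDNA is. It was highest in cells 14 (2.61) and 13 (1.95), both on the low side, and 1.16 to 1.36 in the other 4 cells there. In the 8 cells with more members the ratio was 1.09 to 1.55. Over all 14 cells its r with the share of members was -0.183 and its rho -0.0333. The part of capture, cell type or RNA quality in the gap was not tested.

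The median log2 signal of detected members was 11.90 and 12.72 in the sparse cells 5 and 13. It was 10.99 to 11.95 in the 8 cells with more members. Each median covers only members that passed the threshold in that cell, 18 in cell 5 and 28 in cell 13. They are different genes whose probe sets share no common scale, so these medians cannot be compared between cells. Cell 5 held the highest signal of all 14 cells for 8 of its 18 detected members: Mrpl20, Mrpl23, Mrpl46, Mrps9, Mrps14, Mrps15, Mrps18a and Mrps18c. Cell 13 did so for 6 of 28, among them Mrpl11 and Mrpl51. The same count was not made over all detected genes of these cells, so it cannot be called a trait of the members. MAS5 scales every array to the same trimmed mean, and the part of that scaling in these levels was not tested.

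Comparison of the subunits gave a large subunit slightly ahead. Of the large subunit genes 35 of 47 (74.5%) and of the small subunit genes 19 of 29 (65.5%) were detected in at least 7 cells, with medians of 9 and 8 cells. Per cell, 60.9% ± 23.2 of the large and 53.9% ± 19.8 of the small subunit genes were detected (SD, n = 14). The difference of 7.0 ± 10.4 percentage points was smaller than its spread between cells. It also depended on how probe sets were joined, and fell to 0.943 points when the log2 signals of all probe sets of a gene were averaged. In more than 10 cells were 14 of the 47 large and 4 of the 29 small subunit genes.

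Cell by cell, the large subunit share was above the small in 10 cells and below it in 4. The widest difference in favour of the large subunit was 25.7 points in cell 6, where 38 of 47 large and 16 of 29 small subunit genes were detected. Cell 10 followed with 15.8 points, and cells 1, 2, 3, 7, 8 and 9 lay between 11.1 and 12.4. Cells 4 and 12 had 7.12 and 7.41 points, and cell 11 had -0.0734. The small subunit led in cells 13, 14 and 5, where the difference was -12.9, -7.85 and -6.31 points. Cells 5 and 13 had the fewest detected probe sets, and without them the mean difference was 9.77 points. Without the 2 cells with 10 rod markers it was 5.03 points.

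**Figure D3:**
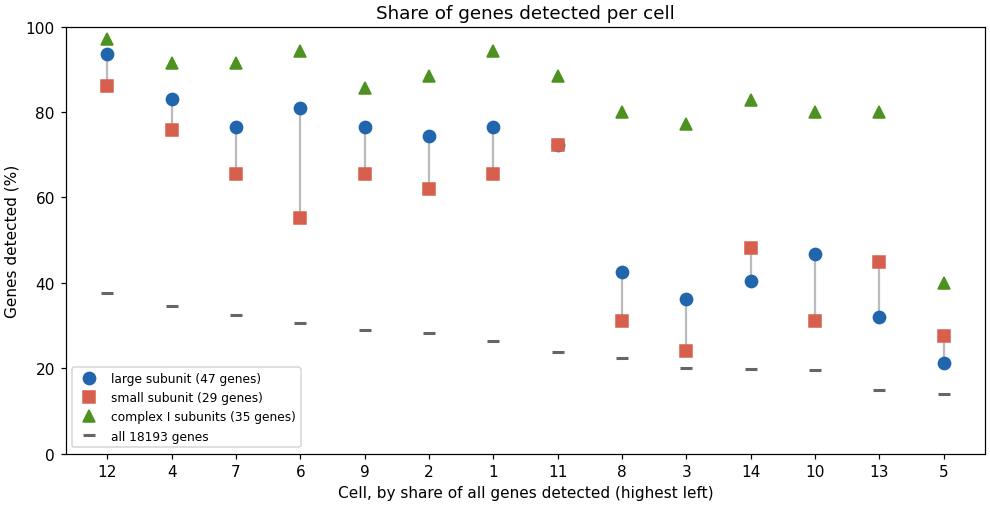
Share of the large subunit genes (blue circles), small subunit genes (red squares), complex I subunits (green triangles) and all genes (grey dashes) detected in each cell, in %, with cells ordered by the share of all genes. Both subunits step down between cell 11 and cell 8, and the circle lies below the square in cells 5, 13 and 14, with both symbols together in cell 11.

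Placing genes by position in the particle and not by symbol made little difference. Mrps18a and Mrps30 carry small subunit names but sit in the large subunit, and Mrps36 is a subunit of the α-ketoglutarate dehydrogenase complex and not of the ribosome. With these changes 36 of 49 large (73.5%) and 17 of 26 small (65.4%) subunit genes were detected in at least 7 cells. Members were also classed by the systematic names of their proteins, as with or without a bacterial homologue. Of those with one 32 of 45 (71.1%) and of those without 21 of 30 (70.0%) reached 7 cells. These names place Mrps18a and Mrps18b without a homologue, although their paralog Mrps18c is placed with one, so the classes are not a strict split by descent. Within the subunits by symbol, which again count Mrps18a and Mrps30 as small, the classes ran in opposite directions. Of the large subunit genes, 15 of 18 without (83.3%) and 20 of 29 with (69.0%) a bacterial homologue reached 7 cells, and of the small subunit genes 6 of 12 (50%) and 12 of 16 (75%). These counts are small and were not tested.

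The most widespread members were 4 large subunit genes, each detected in 13 cells. Mrpl41, a large subunit protein without a bacterial homologue, had a signal of 3.49 in cell 5 and a median of 18226, and reached 40707 in cell 14. Its detected signals in the other 13 cells were all at least 1678, and the only undetected cell was far below them. A further probe set of Mrpl41 was detected in 13 cells, 12 of them shared and the other cell 5, so each cell had a detection by at least 1 of the pair. Mrpl48, in the central protuberance at the top of the subunit, ranged from 52.5 in cell 3 through a median of 7283 to 28152 in cell 10. Its second lowest signal was 151 in cell 5, so both low cells lay well below the rest.

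Mrpl20, whose bacterial counterpart is needed early in assembly of the large subunit, was the steadiest member detected in at least 7 cells, with an SD of 2.23 on the log2 scale. It ranged from 60.9 in cell 13 through a median of 4397 to 24023 in cell 5. Mrpl17, near the exit of the peptide tunnel, went from 36.2 in cell 3 through a median of 1281 to 11126 in cell 2, with an SD of 2.48. Its detection in cell 5 rested on a signal of 66.0, just over the threshold of that array. Without cell 3, Mrpl48 and Mrpl17 were detected in every cell left. Without cell 5 Mrpl41, and without cell 13 Mrpl20, was.

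Mrps12, a protein of the decoding centre, and Mrps36 were the most widespread genes with small subunit names, at 12 cells each. Mrps12 was near background in cells 3 (8.19) and 5 (8.66), had a median of 4614 and read at least 3245 in all other cells, up to 30829 in cell 10. Its detected and undetected cells were thus far apart. Mrps36 ranged from 57.6 in cell 8 through a median of 936 to 11754 in cell 6, with a steady SD of 2.27. Mrpl34, also in 12 cells, ranged from 24.7 in cell 10 through a median of 387 to 7233 in cell 1, with an SD of 2.56.

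**Figure D4:**
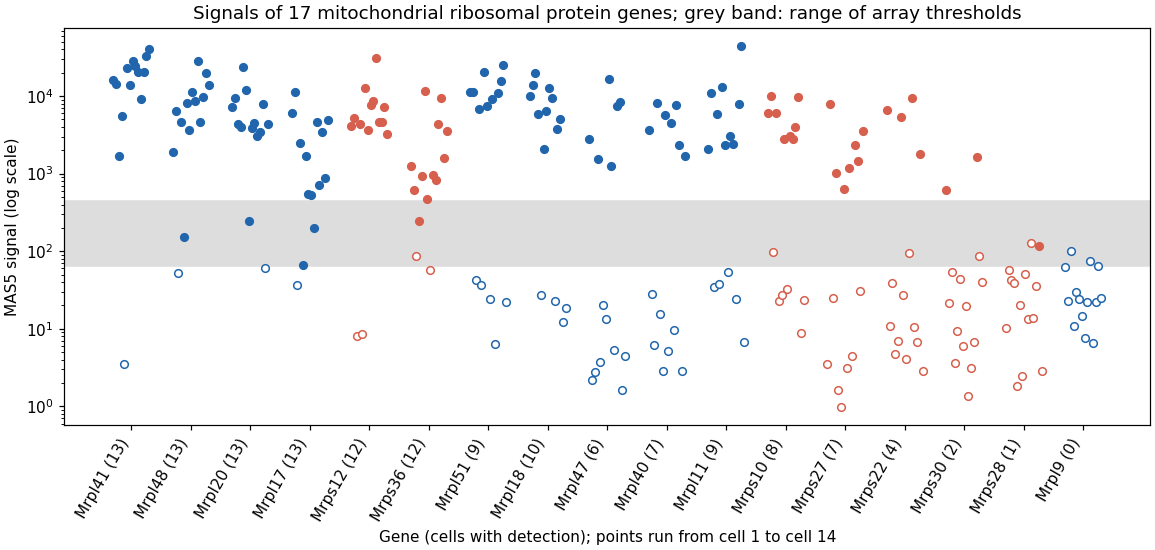
MAS5 signals (log scale) of 17 members, 14 points each from cell 1 to cell 14, with large subunit genes in blue and small subunit genes in red. Filled points are detected, open points are not, and the grey band spans the thresholds of the 14 arrays from 64.2 to 439.7. Mrpl51 to Mrps22, picked for it, leave a gap between filled and open points. The highest open points of Mrps10 (97.9) and Mrps22 (95.6) lie inside the band.

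The members named next were picked for a wide gap between detected and undetected signals, so their on or off look follows from that choice. Others in the same range of cells overlapped. Mrpl55 was detected at 68.5 in 1 cell and undetected at 157.7 in another, and Mrps18c at 99.6 and 264.9. Among the members found in 4 to 10 cells, Mrpl51 had the widest gap between its lowest detected and highest undetected signal, 7.32 on the log2 scale. This large subunit protein without a bacterial homologue read 6721 to 25248 in 9 cells and 6.44 to 42.2 in cells 3, 5, 8, 10 and 14. Those 5 cells all belonged to the 6 with fewer members, and the sixth, cell 13, held the highest Mrpl51 signal. Mrpl18, of the central protuberance, had a gap of 6.26, read 2068 to 20036 in 10 cells, and was undetected in cells 5, 10, 13 and 14 at 12.2 to 27.0. Its highest signal was in cell 3, a cell with 24 members.

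Mrpl11, at the base of the stalk that recruits translation factors, had a gap of 5.25 and was detected in 9 cells, from 2050 in cell 1 to 44461 in cell 13. It was undetected at 6.82 to 53.9 in cells 3, 5, 8, 11 and 14. Mrpl47 (gap 5.95), related to a bacterial protein of the tunnel exit, was detected in 6 cells, from 1240 in cell 9 to 16527 in cell 8, and its highest undetected signal was 20.1. Mrpl40 (gap 5.90), of the central protuberance, was detected in 7 cells between 1694 and 8077 and lay at or below 28.5 elsewhere. The SD of Mrpl40, 4.86 on the log2 scale, was the largest among members found in at least 7 cells. These genes left different cells out, and cell 8 was a cell without Mrpl40 and Mrpl11 but with the highest Mrpl47.

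Of the small subunit genes found in 4 to 10 cells, Mrps10, Mrps27 and Mrps22 had the widest gaps. Mrps10, a protein of the subunit head, was detected in 8 cells at 2795 to 10112 and lay at or below 97.9 in the rest, a gap of 4.83. Mrps27, an RNA-binding protein of the pentatricopeptide repeat family, was detected in 7 cells at 632 to 7989 with a gap of 4.37. Its lowest signals were 0.969 in cell 6 and 1.61 in cell 5, of which cell 6 had 54 members. Mrps22, a small subunit protein without a bacterial homologue, was detected in cells 1, 6, 10 and 13 only, at 1809 to 9426, with 95.6 as its highest undetected signal (cell 9). Mrps22 was thus absent from the detections of cell 12, in which 69 members were found, and present in cell 13, which had 28.

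The 8 members with the widest gaps among those found in 4 to 10 cells gave 7 detections in cells 1, 4, 9 and 12, 6 in cells 7 and 11, 5 in cell 2 and 4 in cell 6. Cells 10 and 13 had 3, cells 8 and 14 had 2, cell 3 had 1 and cell 5 had none. Mrpl13 and Mrpl39 completed the most variable members, with SDs of 4.57 and 4.52. Mrpl13 ranged from 2.25 through a median of 2482 to 11163, and its detection in cell 5 at 66.7 was barely above the threshold. Mrpl39, near the tunnel exit, ranged from 1.40 through a median of 484 to 12610, and its signal of 351 in cell 1 was undetected only because that array has the highest threshold, 439.7.

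At the other end, Mrpl9, whose bacterial counterpart lies by the stalk of the tRNA exit site, was detected in no cell. Its 3 probe sets stayed at or below 121, and the chosen one ranged from 6.65 through a median of 23.2 to 101 in cell 3. Mrps28 was detected only in cell 13 at 116, below the 129 that it read undetected in cell 10, so this call turned on the thresholds of the arrays. Mrps30 was detected in cells 1 and 12, at 619 and 1659. Mrpl1, whose bacterial counterpart forms that stalk, was found in 3 cells (3, 9 and 12), as was Mrpl54 (cells 1, 11 and 13). Without cell 13, Mrps28 joined Mrpl9 and 2 members were detected in no cell.

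By place in the particle, 6 role groups held 30 of the members and were written down after the values were known. Those in at least 7 cells were 6 of 7 at the tunnel exit, 5 of 6 in the central protuberance and 5 of 7 in the small subunit head. They were 2 of 3 at the GTPase centre and stalk and 2 of 4 around the peptidyl transferase centre. At the decoding centre and mRNA entry it was 1 of 3. Of all members 71.1% reached 7 cells, and differences between such small groups were not tested. Around the stalk and the GTPase centre, Mrpl12, whose copies bind the elongation factors, was detected in 11 cells, Mrpl11 in 9 and Mrpl10 in 6. Of 4 proteins around the peptidyl transferase centre, where peptide bonds form, Mrpl2 was found in 9 cells, Mrpl3 in 8, and Mrpl16 and Mrpl27 in 6 each. The 7 proteins of the tunnel exit ranged from 6 cells (Mrpl22) to 13 (Mrpl17) with a median of 10. The 6 of the central protuberance ranged from 6 (Mrpl38) to 13 (Mrpl48) with a median of 10, including Mrpl58, a peptidyl-tRNA hydrolase that became part of the ribosome, in 11 cells.

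In the small subunit, 7 proteins of the head ranged from 4 cells (Mrps31) to 11 (Mrps33) with a median of 8. Around the decoding centre and the mRNA entry, Mrps12 was found in 12 cells but Mrps5 and Mrps24 in 5 each. Mrps24 was detected at 1422 to 13749 in cells 1, 2, 3, 13 and 14 and lay at or below 97.1 in the rest, including cells 4 and 12, which had the most members. Its pattern thus ran apart from that of the whole group.

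The Mrps18 family has 3 paralogs, which occupy different places: Mrps18a in the large subunit, and Mrps18b and Mrps18c in the small. Mrps18a was detected in 10 cells, Mrps18b in 9 and Mrps18c in 10. Every cell had at least 1 of them, with all 3 in 5 cells, 2 in 5 and 1 in 4. Mrps18a and Mrps18c shared 6 cells, and each of the other pairs 7. Mrps18a ranged from 2.20 in cell 8 through a median of 1508 to 24967 in cell 5, and Mrps18c from 7.04 in cell 9 through 1062 to 28770, also in cell 5. Mrps18b ranged from 10.3 in cell 10 through 1058 to 14014 in cell 14, and read 23.7 in cell 5, undetected. So the sparse cell 5 held the highest signals of Mrps18a and Mrps18c and no detection of Mrps18b.

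Members varied together only loosely. On log2(signal + 32) over the 14 cells, the median Pearson's r between 2 genes was 0.270 within 35 large subunit genes found in at least 7 cells, 0.164 within 19 small subunit genes and 0.167 between the subunits. Over all 4507 genes found in at least 7 cells it was 0.0793. These genes share their libraries, and when the median over such genes was subtracted in each cell the values became 0.0810, 0.135, 0.102 and 0.132. After this step pairs within the large subunit no longer stood above pairs of all genes, whose own value had risen. The subtracted median was 6.01 in cell 5 and 6.79 in cell 13, against 9.19 to 11.34 in the other cells. The step thus raised all genes together in cells 5 and 13 relative to the rest. The part of that shift in the new values was not tested.

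The genes whose pattern was most like the mean of the members, among 6812 found in at least 4 cells, were Dbi (r = 0.888 over 14 cells), Cnot7 (0.856), Sart1 and Slc35e2 (0.849 each) and Tspan31 (0.846). With the cell medians subtracted they were Lrp3, Elavl2, Decr1, Pnpla2 and Lrrc24, with r of 0.905 to 0.885, so none of the first 5 was among them. All these values share the libraries and the gap in member counts between cells. Those of the second list also share the shift that the subtraction gave to cells 5 and 13.

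Other genes of mitochondrial translation were found in fewer cells than the ribosomal proteins. Ribosome proteins under other names came close, with Dap3, a GTP-binding protein of the small subunit, in 10 cells, Chchd1 in 9, Ptcd3 in 7 and Gadd45gip1 in 6. Of 13 translation factors 5 (38.5%) reached 7 cells, with a median of 6. They included Lrpprc (11 cells) and its partner Slirp (9), which stabilise mitochondrial mRNA, the elongation factor Tufm (9), the insertase Oxa1l (8) and the recycling factor Mrrf (7). Mtfmt, which formylates the initiator tRNA, was detected only in cell 8.

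Of 20 factors for ribosome assembly and mitochondrial rRNA, 4 (20.0%) reached 7 cells, with a median of 4.5. Ngrn, which binds the rRNA of the large subunit, led with 12 cells, followed by the helicase Dhx30 with 11. Tfb1m, an rRNA methyltransferase, Mterf3 and Malsu1 were detected in no cell. Of 16 mitochondrial tRNA synthetases 2 (12.5%) reached 7 cells, Aars2 and Rars2 with 8 each. The median was 4 cells, and Ears2 and Wars2 were detected in none. Cells 11 and 13 had no synthetase detected, although cell 11 had 55 members. The counts of these enzymes and factors are set beside the 24.8% of all genes that reached 7 cells, and the order of the groups was not tested.

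**Figure D5:**
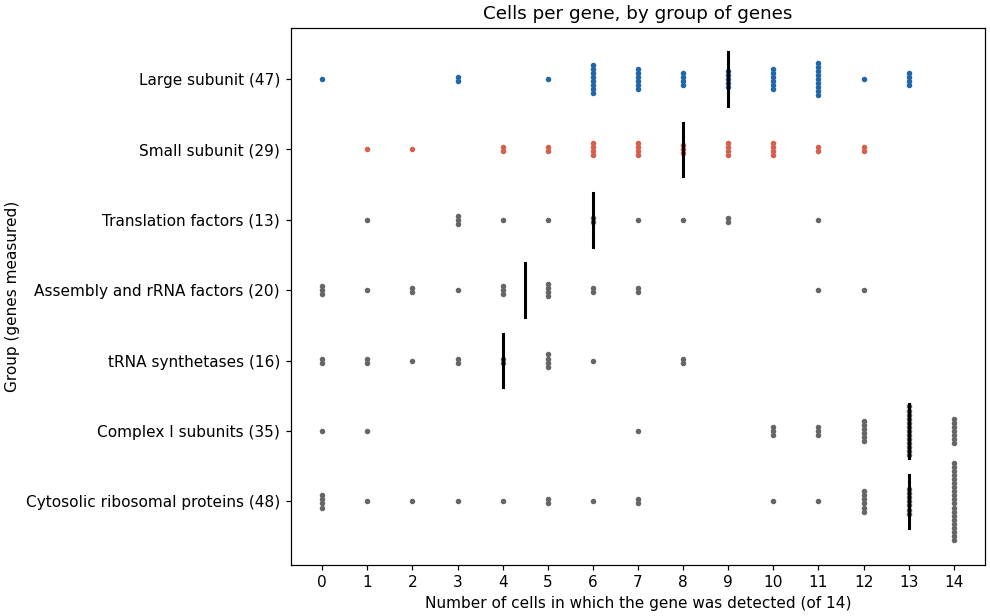
Number of cells in which each gene was detected (horizontal axis, of 14), 1 point per gene, by group, with the number of genes measured in brackets and the group median as a black bar. Medians run from 4 cells for tRNA synthetases to 9 for the large subunit and 13 for complex I and cytosolic ribosomal proteins.

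Complex I of the respiratory chain, which contains products of mitochondrial translation, was more widely detected. Of its 35 nuclear subunits 33 (94.3%) were found in at least 7 cells and 7 in all 14, with a median of 13. Per cell, 83.7% ± 14.1 of them were detected (SD, n = 14), against 58.3% ± 21.4 of the mitochondrial ribosomal proteins, and 40% in cell 5. Cells 3, 8, 10, 13 and 14, which had 24 to 33 members, kept 77.1% to 82.9% of complex I. The 48 genes measured with symbols of cytosolic ribosomal proteins, which build the ribosome outside mitochondria, had a median of 13 cells, with 20 in all 14 and 4 in none. Per cell 75% ± 7.26 of them were detected. This list was taken by symbol and includes paralogs. The 4 in none were the paralogs Rpl3l and Rpl39l, and Rps16 and Rps25, whose chosen probe sets read at most 36.0 and 57.3. Whether such low readings come from the probe set was not tested. The cytosolic proteins had shares of 60.4% to 77.1% in the 6 cells with fewer members and 72.9% to 85.4% in the other 8. Complex I had shares of 40% to 82.9% and 85.7% to 97.1% in the same cells. These sides were drawn from the member counts, so the size of the step cannot be compared between groups.

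Probe sets of a member did not always match. In the 42 members with more than 1 probe set, 191 of the 342 detections by the chosen probe set (55.8%) were shared by another, and for 16 of its 246 non-detections (6.50%) some other probe set was detected. Of the 80 other probe sets 25 were detected in no cell. For Mrps5, 1 of the other probe sets was found in 5 cells and shared only 2 of them with the chosen one. For Mrpl3 a further probe set was detected in 4 cells, of which 1 was shared, with signals of up to 34301. Mrps25 was missed by its chosen probe set in cells 5 and 8, where both others were detected. In Mrpl15, with 8 probe sets, 3 others were found in 8 or 9 cells, all shared with the 10 of the chosen one, and 2 in no cell.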

How the data were processed

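The deposited values are MAS5 signal intensities on a linear scale, 1 Affymetrix Mouse430_2 array per cell. The authors reverse transcribed each cell with an oligo-dT primer, amplified by 35 PCR cycles, screened libraries by PCR and scaled each array (2% trimmed mean of 500.0 on every array). The MAS5 version is not stated in the sources used here. Arrays were read at more than 1 facility, and which cell was read where is not given. Scanner files were not used.

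Of 45101 probe sets, 64 were controls. Of the rest, 34945 name 1 gene in the annotation, giving 18193 genes, and each gene took the probe set whose mean log2 signal was highest. Mrpl30 and Mrpl53 have only probe sets shared with another gene and were left out. Detection required 8 times the array median. The number of arrays limits the precision. With 1 group and no animal named, nothing was tested, an SD is the spread between cells, and correlations carry no p-value.

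The members, lists and rules were chosen with earlier results of these data known, and the role groups after the values were seen. Named genes were members found in all or in no cells, the 8 with the widest gap between detected and undetected signals among those found in 4 to 10 cells, the 5 with the smallest and the 5 with the largest SD among those found in at least 7 cells, paralogs, misplaced symbols, members whose probe sets differed most, and the 5 genes most like the members' mean log2(signal + 32). Mrpl34, Mrps12, Mrps24, Mrps28, Mrpl1, Mrpl54 and the probe sets of Mrpl15 were picked after their values were seen. Promoters came from a RefSeq table, in which 46 of 73 member windows begin at the gene's outermost start. Protein sequences were not analysed here.

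Alternatives were thresholds of 4 and 16 times the median or a fixed signal of 1000, the mean or any of a gene's probe sets, subunits by position, updated symbols, a pseudocount of 1, subtracted cell medians, and leaving out cells. Scripts were tested on simulated data. Python 3.11.15, numpy 2.4.6, pandas 2.3.3 and matplotlib 3.10.9 were used.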

Additional observations from a re-analysis of the deposited data

How the results depend on the processing

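The mean difference between the subunits kept its direction under every alternative run. Of the recomputed values, 201 moved by less than the spread between cells or, for counts, by at most 1.5 times, and 15 moved by more. The number of members detected in every cell, 0 as reported, was 4 at 4 times the array median, 1 when any probe set counted, 2 without the 2 cells with the fewest probe sets and 2 without the 2 cells with over 5 rod markers. The number detected in no cell, 1 as reported, was 0 at 4 and 2 at 16 times the median, 4 at a fixed signal of 1000, 3 with the mean of the probe sets and 2 without the 2 sparsest cells. At a fixed signal of 1000, 36 members reached 7 cells and not 54, among them 11 small subunit genes and not 19. The share of all genes that did so also fell, from 24.8% to 15.3%. The median r within the large subunit fell from 0.270 to 0.0810 with cell medians subtracted. Leaving out each cell in turn gave 0 to 2 members in every cell and 1 to 2 in no cell. It gave 44 to 53 members, 29 to 35 large and 15 to 19 small subunit genes in at least 7 cells. The share of all genes in at least 7 cells was then 21.5% to 24.1%. The difference between the subunits was 5.56 to 8.53 points. The mean of the probe sets brought that difference to 0.943 points. No paired analysis was possible because all cells form 1 group. Arrays carry no read depth, and a signal under the threshold is not the absence of a transcript.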
